A study of Mus musculus with 4 samples.

Results

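The miR-379/miR-410 cluster is the distal group of miRNA genes in the imprinted Dlk1-Dio3 region of mouse chromosome 12, and it ends within the lincRNA gene Mirg. Its 38 listed mature miRNAs were taken by name from the 1915 mature mouse miRNAs that were quantified. The rule uses names and no measured value, but the cluster was picked for description with earlier results of these data known. Of the 38, 36 had a count in at least 1 library, against 1101 of all 1915, and 25 passed the filter on low counts, against 438 in all. miR-380-5p and miR-758-3p had no count in any library and were left out.

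The miRNAs were measured by small RNA sequencing of MIN6 cells and of the exosomes that MIN6 cells release, with 2 libraries of each. MIN6 is an established mouse insulinoma line that keeps many features of the pancreatic β-cell. The cells had been grown without a further treatment, in medium with exosome-depleted fetal bovine serum and β-mercaptoethanol, and the exosomes were collected from conditioned medium by filtration and ultracentrifugation. Both groups therefore come from 1 cell line and 1 culture condition. Nothing in the labels says whether the libraries of a group came from separate cultures, so that p-values measure the spread between these libraries, which may be technical. Handling differed too, as the paper names different instruments for the quality check of exosome and cell libraries. For miRNA qRT-PCR it names a different RNA isolation kit for each. Whether these kits also served for sequencing is not stated. An effect of handling cannot be told apart from that of the group.

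In the Dlk1-Dio3 region the protein-coding genes Dlk1, Rtl1 and Dio3 are expressed from the paternal chromosome, whereas the long non-coding RNAs Meg3, Rian and Mirg and the miRNAs are expressed from the maternal one. The miRNAs of the distal cluster are processed from long transcripts of this domain, are best known from brain, embryo and placenta, and respond to neuronal activity through Mef2. In pancreatic islets the same region is expressed in β-cells, and its miRNAs have been found at lower levels in diabetes. Each mature miRNA pairs with its targets mainly through bases 2 to 8, the seed.

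The sequences below are those of the miRNAs that carry the values of the comparison, with miR-379-3p added because it shares its seed with miR-411-3p. They were taken from RefSeq on GRCm38.p6, are written 5′ to 3′ in the order of the cluster, and have the seed in capitals.
mmu-miR-379-5p: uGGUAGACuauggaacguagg
mmu-miR-379-3p: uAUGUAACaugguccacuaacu
mmu-miR-411-3p: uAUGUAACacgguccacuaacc
mmu-miR-494-3p: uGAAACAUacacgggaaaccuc
mmu-miR-495-3p: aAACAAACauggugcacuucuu
mmu-miR-376a-3p: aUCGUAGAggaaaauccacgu
mmu-miR-300-3p: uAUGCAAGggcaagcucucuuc
mmu-miR-381-3p: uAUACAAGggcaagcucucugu
mmu-miR-382-5p: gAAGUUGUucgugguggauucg
mmu-miR-382-3p: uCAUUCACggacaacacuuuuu
mmu-miR-134-5p: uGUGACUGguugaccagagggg
mmu-miR-541-5p: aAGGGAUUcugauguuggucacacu
mmu-miR-409-3p: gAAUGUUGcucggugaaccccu
mmu-miR-369-5p: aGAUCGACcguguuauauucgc
mmu-miR-369-3p: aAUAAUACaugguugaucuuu

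The RefSeq table used here matched 35 of the 38 members, and mmu-miR-376c-3p, mmu-miR-485-5p and mmu-miR-487b-3p are given by name. The 35 had 34 distinct seeds. Only miR-379-3p and miR-411-3p shared one, and over the whole mature sequence they differed at 2 positions. Outside the 38, seeds were shared by miR-495-3p with miR-1192, by miR-329-3p with miR-362-3p, by miR-410-3p with miR-344d-3p and miR-344e-3p, by miR-379-5p with miR-1193-5p, and by miR-411-5p with miR-7229-5p. Both arms of miR-299a are identical to those of miR-299b and carry the same deposited counts, so their reads cannot be assigned to 1 hairpin. miR-300-3p and miR-381-3p differed at 3 positions, as did miR-376a-3p and miR-376b-3p, and reads with sequence errors could pass between such neighbours. The primary transcripts of miR-376, miR-379 and miR-411 are known substrates of A-to-I editing, and edited reads were not counted separately here.

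On GRCm38.p6 the 25 hairpins that RefSeq places lie at chr12:109709060-109743795, a stretch of 34736 bases, and all 25 are on the plus strand. In GENCODE vM21, Mirg spans chr12:109729764-109749460. Of the 25 hairpins, 15 lie upstream of the annotated gene, from mir-379 to mir-539, and 10 lie within its span. Among those 10, mir-134, mir-485, mir-377 and mir-410 are inside an exon, mir-382, mir-668 and mir-369 partly overlap an exon, and mir-154, mir-541 and mir-409 are in an intron. The upstream hairpins took 29.3% and 27.4% of the cluster's counts in cells against 27.7% and 31.9% in exosomes. The share of these upstream hairpins was therefore similar in every library. The 2 hairpins that could not be placed, mir-376c and mir-487b, took 9.3% and 8.2% in cells against 4.5% and 4.3% in exosomes. They are in neither group of hairpins.

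Mature counts totalled 2930217 and 2564068 for the cells but 47447 and 31409 for the exosomes, and this difference in depth limits every value of the exosomes. A level of 1 count was worth 0.518 and 0.637 TMM-normalized CPM (counts scaled to a common library size) in the cells, and 11.8 and 23.3 CPM in the exosomes. Up to 3 counts were treated as the floor below which no fold is given, which is 35.4 and 69.9 CPM in the exosomes. In cell replicate 1, 32 members lay above 3 counts, in cell replicate 2 this was 22, and in exosome replicate 1 it was 26. Exosome replicate 2 had only 3 such members, namely miR-382-5p, miR-541-5p and miR-134-5p, and 13 of the 36 members with a count had none in it.

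The cluster held a larger part of the miRNAs in the exosomes than in the cells. Its members totalled 2059 and 551 counts in cells against 650 and 69 in exosomes. As a share of the mature counts this was 0.0703% (95% Wilson interval 0.0673 to 0.0734) and 0.0215% (0.0198 to 0.0234) in the cells, and 1.37% (1.27 to 1.48) and 0.220% (0.174 to 0.278) in the exosomes. The intervals cover counting error only and treat reads as independent. Reads without molecular identifiers are not independent molecules, so the intervals can be too narrow. Each exosome library exceeded each cell library, and the lowest exosome share was 3.13 times the highest cell share. Cells had a mean of 0.0459% ± 0.0345 (SD, n = 2) and exosomes one of 0.795% ± 0.813 (SD, n = 2), a ratio of 17.3, or 4.12 on the log2 scale. The log2 ratio was 2.71 on TMM-normalized CPM, and leaving out 1 library gave 2.26 (without exosome replicate 1) to 5.21 (without cell replicate 1). The exosome SD was as large as the exosome mean, and the smallest p that exact permutation allows for 2 against 2 is 1 in 3. A larger share can come from more of these miRNAs or from less of the others, which cannot be told apart in relative counts.

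**Figure D1:**
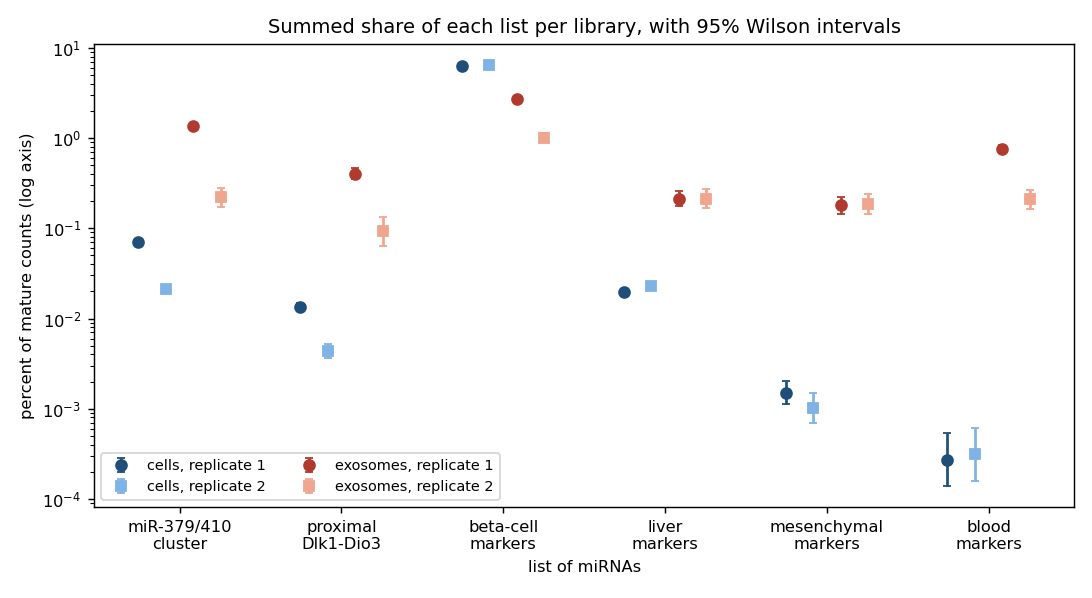
Share of the mature counts (percent, log axis) held by the miR-379/miR-410 cluster and by 5 other lists of miRNAs in each of the 4 libraries, with points for libraries and bars for 95% Wilson intervals. The cluster lies at 0.0703% and 0.0215% in the cells and at 1.37% and 0.220% in the exosomes, so the libraries of each group stand apart from each other as well as from the other group.

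The shares of other marker miRNAs differed between the groups as well. The 6 miRNAs of blood cells, of which 3 and 2 had a count in the cell libraries and 6 and 5 in those of the exosomes, had 8 and 8 counts in cells against 356 and 66 in exosomes, or 0.000273% and 0.000312% against 0.75% and 0.21%. miRNAs of mesenchymal cells, 5 in number, took 0.00150% and 0.00101% in cells against 0.179% and 0.188% in exosomes. The 3 liver miRNAs had shares of 0.0195% and 0.0229% in cells against 0.213% and 0.213% in exosomes. This rise lay mainly with miR-122-5p, which had 13 and 21 counts in cells against 79 and 62 in exosomes. Its fitted log2 fold change was 6.87, while miR-192-5p and miR-194-5p, the rest of this list, had -0.61 and -0.81. By contrast, the 11 β-cell miRNAs took 6.32% and 6.42% in cells against 2.74% and 1.01% in exosomes. Of this list, miR-375-3p held a similar share of the mature counts in both groups. It had 26702 and 25335 counts in cells against 507 and 222 in exosomes (fitted log2 fold change -1.43). miR-7a-5p had 78620 and 67072 counts against 394 and 32 (-3.94), so the members did not fall alike. The part of blood, liver or mesenchymal RNA, or of RNA from the serum, in the share of the cluster was not tested.

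At the level of single members, 8 of the 25 tested were higher in the exosomes at an adjusted p under 0.05 (quasi-likelihood test of edgeR, Benjamini-Hochberg over all 438 tested miRNAs), which is 32.0% of the members. The background was 23.7% of all tested miRNAs. Because the exosome libraries are shallow, 5 of the 8 (miR-494-3p, miR-495-3p, miR-376a-3p, miR-381-3p and miR-485-5p) entered the test only through the exosomes. Neither cell library was over the filter's cutoff of 7.66 CPM for them, where CPM is taken before TMM normalization. A member that enters in this way has to be higher there, and all 5 such members were called. Of the 11 with 1 cell library over the cutoff 2 were called, and of the 9 with both cell libraries over it 1, so the count of 8 says little about the cluster. In the other direction 0 members passed, where the background was 29.5%, and at an unadjusted p under 0.05 the same test gave 12 higher and 0 lower, with backgrounds of 26.9% and 35.8%. The exactTest of edgeR, at a fold of 2 and an unadjusted p under 0.05, called 14 members higher, with a background of 27.6%, and 0 lower, with a background of 39.5%. DESeq2 called 13 higher and 0 lower, with backgrounds of 26.7% and 32.2%. By TMM-normalized CPM the exosomes stood above the cells without overlap for 15 of the 25, or 60.0%, and the same held for 33.3% of all tested miRNAs. Log2 fold changes of the 21 tested members with a fold ranged from -0.15 to 5.39, and 20 of them were positive. The fitted median over the 25 was 2.52, against -0.75 over all 438 tested, and it carries the same effect of the filter. The median was also 2.52 when the other 4 members, whose exosome counts were at or under the floor, were set to 0. Under scaling by library size alone the median of the members was 3.92 and that of all tested miRNAs 0.61, so the scaling moved both.

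**Figure D2:**
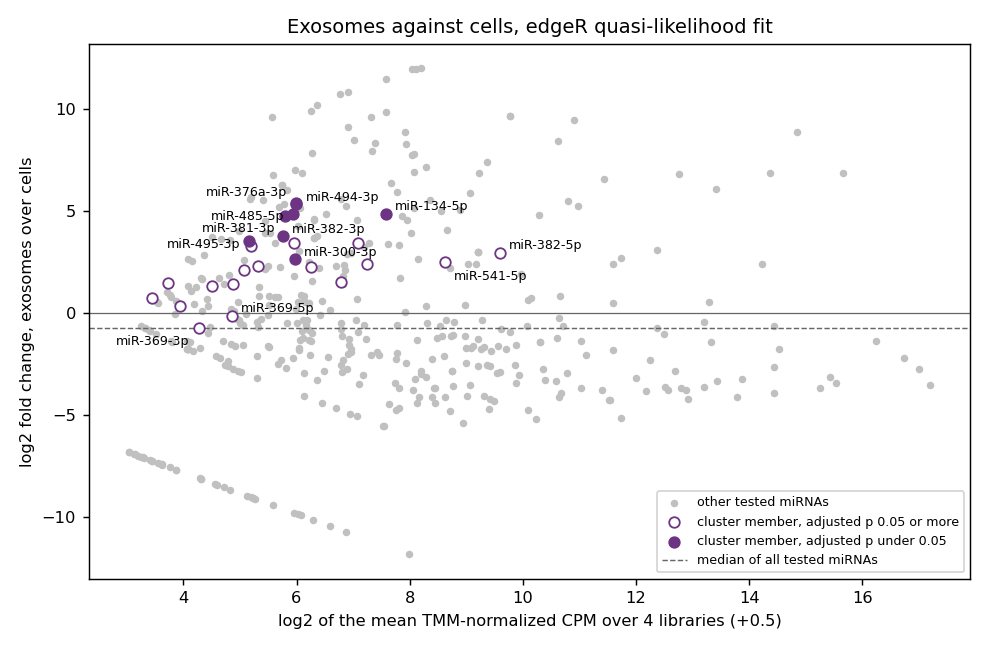
Log2 fold change of exosomes over cells (vertical axis) against the log2 mean TMM-normalized CPM over the 4 libraries (horizontal axis), with the 25 tested cluster members in purple and the other tested miRNAs in grey. The 8 filled points passed an adjusted p of 0.05, and the members, including 4 whose exosome counts are at or under the floor and whose fitted values are no folds, spread from -0.76 to 5.39 around a median of 2.52, above the dashed median of all 438 tested miRNAs at -0.75.

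The 8 calls rest on few counts and their number depends on single libraries. In 7 of the 8 members that were called, exosome replicate 2 had at most 3 counts. Without cell replicate 1, 3 of 14 tested members were called (background 21.4%), and without cell replicate 2, 0 of 14 (19.2%). Without exosome replicate 1 the number was 2 of 25 (17.7%), whereas without exosome replicate 2 it was 15 of 27 (23.3%). In these fits the lone library of a group is assumed to vary like those of the other group. A call could be lost at a nearly unchanged fold or with a smaller one. miR-134-5p had a log2 fold change of 4.85 without cell replicate 1 and 3.75 without cell replicate 2, against 4.87 with all libraries. Without cell replicate 2, all called members still tested had smaller folds. Among them, miR-494-3p had 3.98 (5.34 with all libraries), miR-376a-3p 3.85 (5.39) and miR-300-3p 1.60 (2.63).

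The smallest adjusted p-values belonged to miR-134-5p and miR-485-5p, both from hairpins inside exons of Mirg. miR-134 is known in neurons for repressing Limk1 and limiting the size of dendritic spines. It had 35 and 12 counts in cells against 47 and 8 in exosomes, or 18.1 and 7.65 TMM-normalized CPM against 554 and 186. Its exosome values lay well above its cell values in both libraries, and its log2 fold change was 4.87 (SE, the standard error of the fit, 0.80, adjusted p = 0.0139 by the same test). miR-485-5p, which is known for its control of synaptic proteins, had 9 and 6 counts in cells against 14 and 3 in exosomes. Its log2 fold change was 4.84 (SE 0.57, adjusted p = 0.00715), and the groups did not overlap. The other arm, miR-485-3p, had 46 and 8 counts in cells against 9 and 1 in exosomes, and its normalized values overlapped between the groups (adjusted p = 0.151).

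Upstream of Mirg, 5 members were called. miR-494-3p is named by the study, which reports it as higher in the exosomes by qRT-PCR as well. The study's text also gives miR-494 among the miRNAs with little difference, where its figure legend names miR-484. miR-494-3p had 10 and 2 counts in cells against 19 and 1 in exosomes. Its log2 fold change was 5.34 (SE 1.12, adjusted p = 0.0228), with 224 CPM in 1 exosome library and a single read, worth 23.3 CPM, in the other. miR-495-3p had 15 and 7 counts in cells against 9 and 1 in exosomes, a log2 fold change of 3.55 (SE 0.78, adjusted p = 0.0250). For both miRNAs the lower exosome library thus stood on 1 read.

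miR-376a-3p, of the edited miR-376 group, had 11 and 0 counts in cells against 15 and 3 in exosomes, and its log2 fold change was 5.39 (SE 1.27, adjusted p = 0.0296). The related miR-376b-3p, with 23 and 4 counts in cells against 9 and 1 in exosomes, did not pass (log2 fold change 3.29, adjusted p = 0.0632), and neither did miR-376c-3p, with 179 and 43 in cells against 21 and 3 in exosomes (log2 fold change 1.51, SE 0.90, adjusted p = 0.213). The 3 relatives therefore stood in the reverse order in fold change and in cell counts. This order is partly built in, because the cells are the base of the fold. miR-381-3p had 14 and 1 counts in cells against 14 and 2 in exosomes, a log2 fold change of 4.78 (SE 1.15, adjusted p = 0.0314). Its near relative miR-300-3p had 46 and 21 in cells against 14 and 2 in exosomes, a log2 fold change of 2.63 (SE 0.70, adjusted p = 0.0380). Exosome counts were equal for miR-300-3p and miR-381-3p, while their cell counts were not.

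In the quasi-likelihood test with TMM, none of the 8 members most abundant in the cells passed the adjusted threshold. Among the 8 most abundant in the exosomes, miR-134-5p and miR-494-3p did. The last of these 8, miR-411-3p, tied with the called miR-376a-3p at a mean of 123 CPM. Ranking by the cells favours low folds, and ranking by the exosomes favours high ones. This contrast is therefore partly built in. miR-382-5p led in every library, with 506 and 152 counts in cells against 199 and 17 in exosomes, or 262 and 96.9 TMM-normalized CPM against 2346 and 396. Its exosome libraries lay above its cell libraries, but they differed from each other more than the lower one differed from cell replicate 1, and its log2 fold change of 2.95 had a SE of 1.06 (adjusted p = 0.0757). It did pass in 7 of 13 alternatives, among them library size alone, the upper quartile, DESeq2 and the filter of 10 counts in every library. The other arm of the same hairpin, miR-382-3p, had 25 and 3 counts in cells against 11 and 3 in exosomes, and it did pass (log2 fold change 3.76, SE 1.05, adjusted p = 0.0429). miR-541-5p came second in every library, with 353 and 89 counts in cells against 96 and 9 in exosomes (log2 fold change 2.52, SE 1.04, adjusted p = 0.104), and it passed in 5 of 12 alternatives.

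miR-379-5p, the first miRNA of the cluster, had 159 and 31 counts in cells against 37 and 3 in exosomes. Its normalized values overlapped between the groups, at 82.3 and 19.8 CPM in cells and 436 and 69.9 in exosomes, and its log2 fold change was 2.40 (SE 1.09, adjusted p = 0.126). Of the pair with a common seed, miR-379-3p had 46 and 16 counts in cells against 5 and 1 in exosomes (log2 fold change 1.40, adjusted p = 0.210). miR-411-3p was the more abundant of the pair in each library, with 82 and 20 against 15 and 3 (log2 fold change 2.25, SE 0.86, adjusted p = 0.0861, passed in 4 of 12 alternatives). miR-409-3p had 67 and 23 counts in cells against 38 and 2 in exosomes, and it missed the threshold narrowly (log2 fold change 3.43, SE 1.04, adjusted p = 0.0518), which it passed in 7 of 12 alternatives.

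Both arms of miR-369, whose hairpin is next to the distal end of the cluster, had the lowest fitted values of the 25 tested members. miR-369-3p is known for binding the AU-rich element of TNF mRNA. It had 75 and 20 counts in the cells but 2 and 0 in the exosomes, which is under the floor, so no fold is given. miR-369-5p had 96 and 26 counts in cells against 4 and 0 in exosomes, with a log2 fold change of -0.15 (SE 1.24, adjusted p = 0.918). The sign of the latter changed with scaling by library size alone and by the upper quartile, and without exosome replicate 2, so no direction can be given for it.

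**Figure D3:**
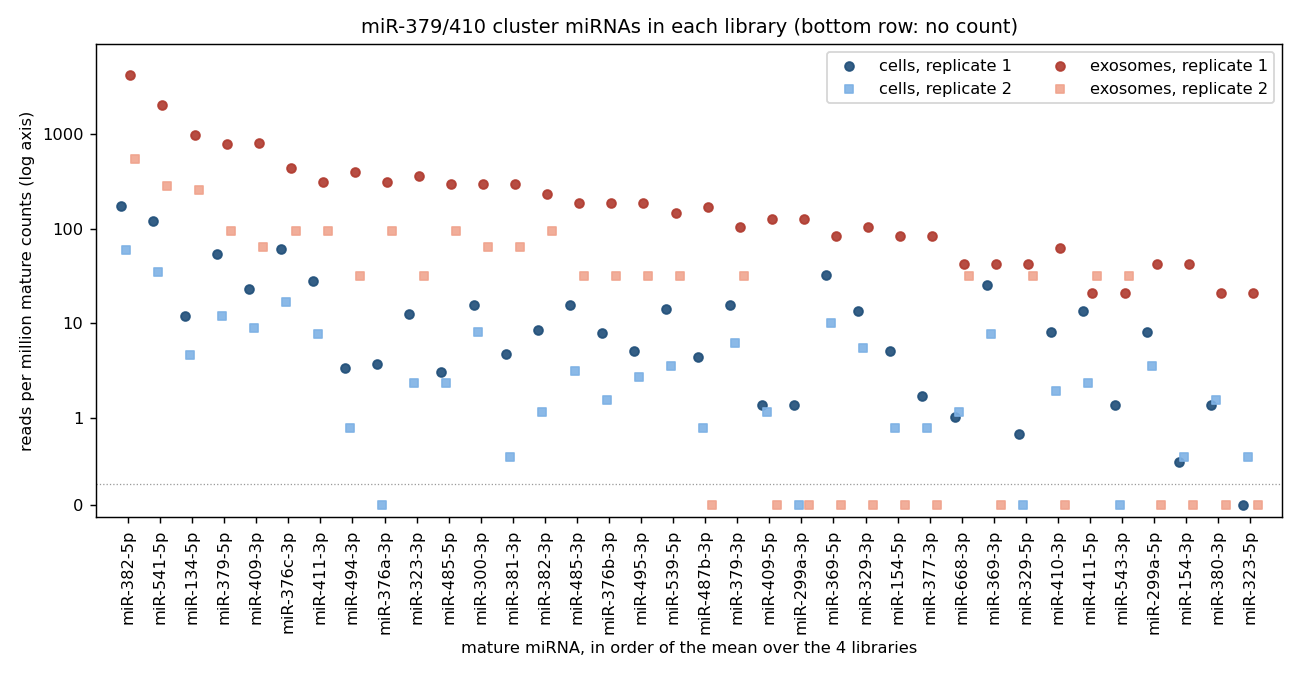
Deposited RPM, the count scaled by the sum of its library (log axis), of the 36 cluster members with a count in each of the 4 libraries, ordered by their mean, with members without a count in a library in the bottom row. miR-382-5p, at 173 and 59.3 RPM in cells and 4194 and 541 in exosomes, leads in every library, and 13 members lack a count in exosome replicate 2.

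Within the cluster, cells and exosomes differed in the balance of members. Over the 36 members with a count, the counts of the cell libraries had a Spearman rank correlation of 0.900 with each other and those of the exosome libraries of 0.765, while a cell and an exosome library had between 0.393 and 0.548. These correlations are across miRNAs of the same libraries and are given as a description, without a value over all miRNAs beside them. Exosome replicate 2 had no count for 13 of the 36 members, which can lower its correlations. The mir-382 hairpin held 25.8% and 28.1% of the cluster's counts in cells against 32.3% and 29.0% in exosomes, and mir-541 held 17.1% and 16.2% against 14.8% and 13.0%. These leading hairpins thus kept a similar place in both groups. mir-134 took 1.70% (95% Wilson interval 1.22 to 2.35) and 2.18% (1.25 to 3.77) of the cluster's counts in the cells, and 7.23% (5.48 to 9.48) and 11.6% (5.99 to 21.2) in the exosomes. The mir-369 hairpin took 8.31% (7.19 to 9.58) and 8.35% (6.32 to 11.0) in the cells, and 0.923% (0.424 to 2.00) in exosome replicate 1. Exosome replicate 2 had 0 of 69 counts on mir-369, for which the Wilson interval ends at 5.27% and the limit of 3 counts is 4.35%. The mir-376a hairpin took 0.534% (0.299 to 0.954) and 0% (0 to 0.692) in the cells, and 2.31% (1.40 to 3.77) and 4.35% (lower limit 1.49) in the exosomes. Of the 26 hairpins, these 3 had intervals that did not overlap in any pair of a cell and an exosome library, with mir-134 and mir-376a higher and mir-369 lower in the exosomes. They were singled out after their values were seen, and no such count was made over other hairpins. For mir-376a the value of exosome replicate 2 rests on 3 counts, which is at the floor. The intervals leave out the spread between libraries.

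**Figure D4:**
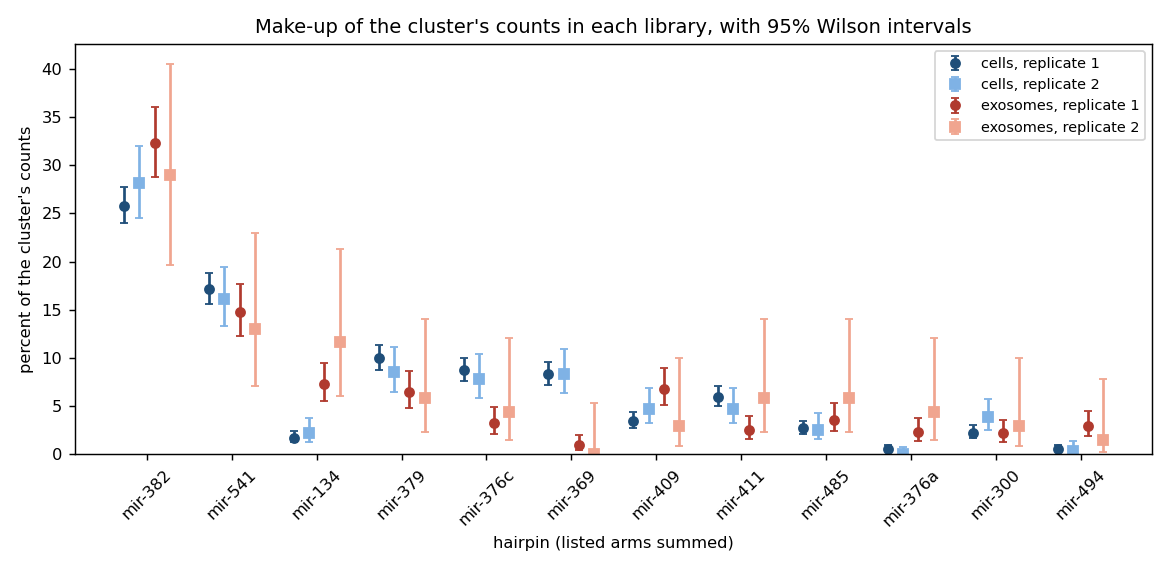
Share of the cluster's counts (percent) held by each of the 12 hairpins with the highest share in any library, with the listed arms summed, points for the 4 libraries and bars for 95% Wilson intervals. mir-382 lies between 25.8% and 32.3% in every library, mir-134 and mir-376a are higher and mir-369 is lower in the exosomes, and the bars of exosome replicate 2 are wide because it held 69 cluster counts.

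The balance of the arms could be followed in few hairpins. Of the hairpins of the distal cluster with both arms listed, 36 in number, only mir-382 had at least 10 counts on both arms together in every library. Its 3p arm took 4.71% and 1.94% of them in cells against 5.24% and 15.0% in exosomes, where the last value has an exact binomial interval of 3.21 to 37.9. With the libraries of a group summed, 16 hairpins had at least 10 counts in each group, and the same arm led in both groups in 14 of them. The exceptions were mir-376b, whose intervals overlapped, and mir-485. On mir-485 the 3p arm held 78.3% of 69 counts in the cells (exact interval 66.7 to 87.3) and 37.0% of 27 counts in the exosomes (19.4 to 57.6). By library these shares were 83.6% and 57.1% in cells against 39.1% and 25.0% in exosomes, so the cell libraries differed from each other too. The intervals of single libraries overlapped between the groups except for cell replicate 1 (71.2 to 92.2) and exosome replicate 1 (19.7 to 61.5). mir-376c kept its leading 3p arm, with 97.4% (94.4 to 99.0) in the cells and 77.4% (58.9 to 90.4) in the exosomes. The exosome value came from replicate 1, with 75.0% of 28 counts, as replicate 2 had 3 counts that were all on the 3p arm, and miR-376c-5p differs from miR-376b-5p at 1 position, so that 5p reads could pass between these hairpins. Summed counts of a group do not carry the spread between its libraries.

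The libraries of one group also differed in the cluster as a whole, and for members above a count minimum in the same direction. In the cells, 21 members had at least 20 counts over both libraries, and all 21 had a higher RPM in replicate 1 than in replicate 2, with a median ratio of 3.46 and a range of 1.81 to 6.38. The ratio was over 2 for 19 of the 21, and this was so for 10.1% of the 424 miRNAs with as many counts. Outside the Dlk1-Dio3 region it was so for 4.80% of 396 miRNAs, where the median ratio was 0.998. The highest of these 19 were miR-743b-3p (3.84), miR-3102-5p (3.79), miR-465b-5p (3.66) and miR-871-3p (3.43). miR-465a-3p, miR-465c-5p, miR-741-3p and miR-743a-3p were also among them, so such a ratio was not confined to the region. Among the 20 miRNAs with the highest ratio, 14 were cluster members, and among the 40 highest there were 19. Members with fewer counts were not compared, and 4 of them (miR-380-3p, miR-668-3p, miR-154-3p and miR-323-5p) had a higher RPM in replicate 2. The β-cell miRNAs were level between the same libraries, at 6.32% and 6.42%.

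In the exosomes 17 members had at least 10 counts over both libraries, and the ratio was over 2 for all 17, with a median of 4.19 and a range of 2.17 to 10.2. Here 43.3% of the 233 miRNAs with as many counts had such a ratio, and outside the region 37.2% of 207, with a median of 1.35, so the exosome libraries differed widely in other miRNAs too. This comparison sets 1 library against 1 and has no replicate check, and it was added after the values had been seen. What separates the cell libraries was not tested.

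**Figure D5:**
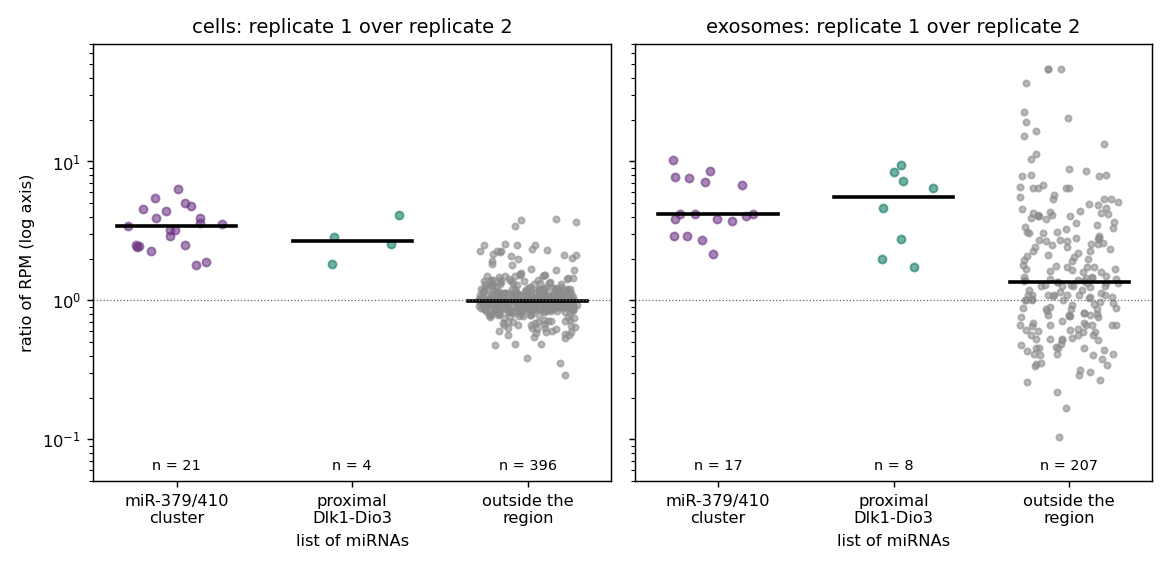
Ratio of RPM in replicate 1 over replicate 2 (log axis) in the cells (left) and in the exosomes (right) for cluster members, proximal Dlk1-Dio3 miRNAs and miRNAs outside the region, with a point per miRNA and a bar at the median. In the cells the 21 cluster members lie between 1.81 and 6.38 with a median of 3.46, while the 396 miRNAs outside the region have a median of 0.998.

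The proximal miRNAs of the same region, which lie around Rtl1 and are expressed from the same chromosome, had a similar pattern. Their 31 listed members summed to 394 and 112 counts in cells against 191 and 29 in exosomes, which is 0.0134% and 0.00437% of the mature counts against 0.403% and 0.0923%. Of the 10 that were tested, 5 were higher in the exosomes and 0 lower by the quasi-likelihood test. The backgrounds over all tested miRNAs were 23.7% and 29.5%. Their median log2 fold change was 4.11, against -0.75 over all 438 tested miRNAs. The filter on low counts bears on these calls and this median as it does on those of the cluster. The counts of the distal cluster were 5.23 and 4.92 times those of the proximal miRNAs in the cells, and 3.40 and 2.38 times in the exosomes. Cell libraries, which differed 3.27 times in the share of the distal cluster, thus hardly differed in this ratio. Another 37 arms and hairpins of the distal cluster, which were not among the 38, summed to 115 and 40 counts in cells against 62 and 5 in exosomes. Of these, 23 had a count and 3 were tested, and 1 of the 3 was higher in the exosomes (background 23.7%). This was miR-667-3p, with 20 and 3 counts in the cells against 22 and 4 in the exosomes.

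The reads counted for the cluster lay on the annotated arms of its hairpins. Of the reads on the hairpins of the members, 0.326% and 0.344% in cells against 2.17% and 5.48% in exosomes fell on neither arm. Over all hairpins this was 10.9% and 9.58% in cells against 32.8% and 42.0% in exosomes. The deposited sequences of the 36 members with a count were searched in 139565 transcripts of GENCODE vM21 that belong to no miRNA gene, and 5 occurred in Mirg while 0 occurred in a gene outside the locus.

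The remaining members were low. miR-323-3p had 37 and 6 counts in cells against 17 and 1 in exosomes, with its exosome libraries above its cell libraries (adjusted p = 0.0667), and miR-323-5p had 0 and 1 against 1 and 0. miR-539-5p had 42 and 9 counts in cells against 7 and 1 in exosomes (adjusted p = 0.160). Neither passed the threshold. miR-329-3p had 40 and 14 counts in cells against 5 and 0 in exosomes, while its other arm had 2 and 0 against 2 and 1. miR-410-3p, which has been linked to glucose-stimulated insulin secretion, had 24 and 5 counts in cells against 3 and 0 in exosomes. miR-411-5p had 40 and 6 counts in cells against 1 and 1 in exosomes, and miR-299a-5p had 24 and 9 against 2 and 0. No fold can be given for miR-410-3p, miR-411-5p and miR-299a-5p, whose exosome counts were at or under the floor.

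The 11 members with a count that were not tested had at most 15 counts in any library. miR-487b-3p (13 and 2 counts in the cells, 8 and 0 in the exosomes) and miR-154-5p (15 and 2, 4 and 0) were the most abundant of them, and miR-409-5p (4 and 3, 6 and 0) and miR-299a-3p (4 and 0, 6 and 0) had their exosome counts in replicate 1 alone. The others were miR-380-3p (4 and 4, 1 and 0), miR-323-5p, miR-329-5p, miR-543-3p, miR-668-3p, miR-154-3p (1 and 1, 2 and 0) and miR-377-3p, with at most 5 counts in any library. At this depth, differences between the groups were not detectable for them.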

How the data were processed

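Small RNA libraries of MIN6 cells and MIN6-derived exosomes (2 each) had been made by polyadenylation and template switching and sequenced on an Illumina platform. The authors trimmed adapters, discarded rRNA reads, and aligned the rest to the genome, miRBase v21 and RNAcentral. Their processing notes name mm10, cutadapt, Bowtie, STAR, RSEM, Bowtie2 and edgeR. For each mature miRNA the authors deposited raw counts and RPM. The latter equalled the count over the library sum to within a relative difference of 1e-06. They also deposited counts per hairpin and on neither arm. The columns of reads per arm join several values in a cell and were not used.

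Low miRNAs were dropped with filterByExpr (minimum count 10). The filter required at least 7.66 CPM, taken before TMM, in 2 libraries, which 1 count in each shallow exosome library exceeded. Its default minimum on the count summed over the libraries applied as well. miR-543-3p, with 1 count in each exosome library, was thus not tested. The 438 kept were fitted with glmQLFit and glmQLFTest of edgeR 4.0.16 (R 4.3.3) with TMM normalization and group as the only term, with Benjamini-Hochberg adjustment over all of them. The common dispersion was 0.164. Standard errors were derived from the F statistic, as the absolute log2 estimate divided by its root. The code was tested on simulated data. Alternatives were RLE, library size alone, upper quartile, DESeq2 1.42.0, edgeR's exactTest as used in the study, no filter, a filter of 10 counts in each library, a replicate block, leaving out the 5 most abundant miRNAs of each group, and leaving out each library.

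The members and the lists of other miRNAs were chosen with earlier results of these data known. Values per library are given for the members called, the 8 most abundant of each group, miR-494-3p, and both arms of hairpins with 2 listed arms. The other members were described by their counts. The ratios between replicates and the summary by place along the cluster were added after values had been seen. Replicate ratios had 0.5 counts added. Sequences and positions came from RefSeq on GRCm38.p6, and genes from GENCODE vM21.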

Additional observations from a re-analysis of the deposited data

How the results depend on the processing

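The number of members called higher in the exosomes was 8 of 25 (background 23.7% of all tested miRNAs) and became 11 with RLE (26.0%), 13 with library size alone (31.3%), 14 with the upper quartile (29.5%), 13 with DESeq2 (26.7%), 14 with the exactTest (27.6%), 6 without the most abundant miRNAs (21.8%) and 5 of 36 without a filter (9.45%). With at least 10 counts in every library 1 member was tested and called, miR-382-5p, which was not among the 8 (37.0%). Leaving out a library gave 0 to 15. The cause of these shifts was not tested, except that fewer members (14) were tested without either cell library. The number called lower was 0 in every setting. The 8 calls were kept under RLE, library size alone, the upper quartile, DESeq2, the exactTest and the replicate block, and 5 were kept without a filter.

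The median log2 fold change of the members stayed positive, from 1.14 without exosome replicate 1 to 3.92 with library size alone, against -2.53 and 0.61 over all miRNAs tested, and leave-one-out gave up to 3.73. The log2 ratio of the shares was 4.12, and leave-one-out gave 2.26 to 5.21. The fitted value of miR-369-3p turned to 0.58 with library size alone. That of miR-369-5p turned to 1.20 with library size alone, 0.48 with the upper quartile and 0.58 without exosome replicate 2, and fell to -8.32 without exosome replicate 1, where no exosome count was left.

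With the replicate number as a block, 16 of 25 members were called higher, where the background was 26.7% of all tested miRNAs. Deviations of same-numbered libraries correlated at 0.194 over 438 miRNAs, but with only 2 pairs the numbers do not establish a pairing. Depth limits all values of exosome replicate 2, with 69 cluster counts.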
